A study of Drosophila melanogaster with 26 samples.

Results

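The genes described here encode proteins of the mitochondrial ribosome of *Drosophila melanogaster*, measured in ovaries in which a subunit of the nonspecific lethal (NSL) complex was depleted from the germline. They were chosen by name, as the genes whose symbol begins with mRpL (large subunit) or mRpS (small subunit) and whose mean normalised read count was at least 10. Earlier results of these data were known when this choice was made. Of 15340 genes in each table, 73 carried such a name and 72 were tested, by symbol 46 of the large and 26 of the small subunit. The remaining gene, mRpL53, had no read in any of the 12 libraries. By their protein families, 46 members have a counterpart in the bacterial ribosome and 26 are found only in mitochondrial ribosomes.

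The mitochondrial ribosome descends from that of a bacterium and makes the few proteins encoded in mitochondrial DNA, all of them subunits of the respiratory chain and ATP synthase. Its ribosomal RNAs are transcribed inside the organelle, whereas its proteins are encoded in the nucleus, made on cytosolic ribosomes and imported, so that its assembly depends on both genomes. In the fly ovary, mitochondria and their DNA multiply in the germline, and nurse cells pass them to the oocyte. The NSL complex holds the histone acetyltransferase MOF and binds the promoters of many constitutively active genes.

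Total RNA depleted of ribosomal RNA was sequenced from whole ovaries of 4 groups of 3 libraries each: white RNAi, the control against an eye colour gene, NSL1 RNAi, NSL2 RNAi and NSL3 RNAi. All 4 groups, the control included, carried *nanos*-GAL4, which drives transgenes in germline cells, together with a hairpin, and F1 females were kept on yeast for 3 to 5 days before dissection. Each knockdown rests on 1 hairpin line, and the labels and the study's methods name different lines for NSL3. Somatic cells of the ovary, such as follicle cells, lie outside the reach of this driver. The study describes NSL1 RNAi and NSL3 RNAi ovaries as atrophied and NSL2 RNAi ovaries as normal in form. In whole ovaries, fewer germline cells and less RNA per germline cell cannot be told apart. The study's text names virgin white RNAi females as the control of NSL1 RNAi and NSL3 RNAi, but the control columns of all 3 tables carry the nonvirgin name and held the same reads, so each comparison used the same 3 white RNAi libraries. The replicates are described as ovaries from separate crosses.

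The assigned reads per library numbered 20820820 to 23021900 for white RNAi, 14507550 to 16699905 in NSL1 RNAi, 14868717 to 20911687 in NSL2 RNAi and 12482452 to 15127028 in NSL3 RNAi. A member had between 75 reads (mRpL47) and 3184 reads (mRpS30) in a library, and members with few reads were measured less precisely. The targeted transcripts were lower in their own knockdowns, with log2 fold changes of -0.88 for *nsl1* (wah), -0.54 for *nsl2* (dgt1) and -0.92 for *nsl3* (Rcd1). Transcripts of *nsl2* and *nsl1* were lower in NSL3 RNAi too, at -0.97 (limma adjusted p = 0.0026) and -0.55 (limma adjusted p = 0.0049). NSL3 RNAi library 2 stood apart from libraries 1 and 3, with the highest value of that group for 64 of the 72 members, and the counts, medians and leading members of NSL3 RNAi are also given without it. The tables were normalised separately, so the white RNAi values differ between them. A fold change below is the difference of the group means of log2(normalised reads + 1). It was tested with limma across all features that passed the minimum mean and adjusted by the Benjamini-Hochberg method. A gene "rose" or "fell" where the adjusted p was below 0.05, and passed 2-fold where its log2 fold change was also beyond 1 or -1.

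In NSL1 RNAi ovaries, transcripts of the mitochondrial ribosome were lower almost throughout. Of the 72 members, 61 fell, 1 rose and 10 were not called, with a median log2 fold change of -0.53 and a range of -1.35 to 0.24. Among all 9083 genes tested, 48.0% fell, 41.1% rose and the median was -0.13. For 66 members every NSL1 RNAi library lay below every white RNAi library, an arrangement seen in 48.9% of all genes. The fall was mostly of less than 2-fold, since 8 members fell past 2-fold, where 20.4% of all genes did, and no member rose past 2-fold, where 31.8% of all genes did. When libraries were scaled on genes alone, the median of all genes in NSL1 RNAi moved from -0.13 to 0.02 and that of the members to -0.39, so that the median of the members minus that of all genes was -0.41 under either scaling. In that scaling 53 members fell, 5 of them past 2-fold, where 43.5% of all genes fell and 1520 of 9125 fell past 2-fold. The difference from all genes depended on which genes were kept, and was -0.20 at a minimum mean of 50 and -0.88 with no minimum.

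The deepest fall in NSL1 RNAi was that of mRpS18A, 1 of 3 fly relatives of bacterial S18, whose human counterpart sits in the large subunit. Its normalised read counts were 1441, 1457 and 1252 in white RNAi and 603, 557 and 472 in NSL1 RNAi. The groups were far apart, and the log2 fold change was -1.35 (SE 0.11, limma adjusted p = 2.7e-06). The paralog mRpS18B fell as well, from 886, 886 and 835 in white RNAi to 417, 403 and 384 in NSL1 RNAi (log2 fold change -1.11, SE 0.08, limma adjusted p = 1.2e-06). The third relative, mRpS18C, had 270, 282 and 241 normalised reads in white RNAi and 196, 199 and 188 in NSL1 RNAi. Its log2 fold change was -0.44 (SE 0.12, limma adjusted p = 0.0065), and this call was lost in DESeq2 (adjusted p = 0.079). The paralogs were not tested against each other.

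The stalk of the large subunit recruits translation factors. For mRpL10, which anchors it and whose counts are uncertain because it overlaps the gene CG11617, normalised read counts were 1086, 1021 and 916 in white RNAi and 395, 409 and 420 in NSL1 RNAi (log2 fold change -1.30, SE 0.09, limma adjusted p = 9.3e-07). For mRpL12, the stalk protein itself, they were 1876, 1905 and 1747 against 841, 805 and 762 (log2 fold change -1.20, SE 0.07, limma adjusted p = 3.1e-07). The 3 knockdown libraries of both genes sat close together and well under the controls. The stalk base protein mRpL11 fell by 0.84 on the log2 scale (SE 0.13), with 545, 532 and 450 normalised reads in white RNAi and 251, 278 and 324 in NSL1 RNAi.

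The other members past 2-fold in NSL1 RNAi came from both subunits. The mitochondrion-specific mRpL54 had 675, 701 and 601 normalised reads in white RNAi and 286, 302 and 264 in NSL1 RNAi (log2 fold change -1.21). The small subunit protein mRpS10 had 1198, 1334 and 1167 against 563, 509 and 571 (log2 fold change -1.17). Both fell in all 3 libraries without overlap. The mitochondrion-specific mRpS23 had 889, 896 and 777 normalised reads against 411, 379 and 402 (log2 fold change -1.10), and mRpL21 had 1023, 1012 and 864 against 465, 499 and 467 (log2 fold change -1.01).

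mRpS5, mRpS7 and mRpL3 fell by less than 2-fold. The fold changes of mRpS5, a protein tied to decoding fidelity in bacteria, and of mRpS7, which nucleates the head of the bacterial small subunit, were both -0.99 (SE 0.14 and 0.07). mRpL3, near the peptidyl transferase centre, fell by 0.67 on the log2 scale (SE 0.07), from 1280, 1342 and 1161 normalised reads to 809, 784 and 779.

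mRpL2, the other conserved protein of the peptidyl transferase centre, moved the opposite way. It had 542, 554 and 518 normalised reads in white RNAi and 631, 633 and 639 in NSL1 RNAi, a log2 fold change of 0.24 (SE 0.07, limma adjusted p = 0.013). It was the 1 member that rose in NSL1 RNAi, although scaling on genes alone also brought the rise of mRpS22, a mitochondrion-specific small subunit protein, past the threshold (0.15, limma adjusted p = 0.041). In the annotation of Release 6, mRpL2 overlaps the gene Ufd1-like, whose own log2 fold change in NSL1 RNAi was -0.24, and because the strand used in counting is not stated, reads of the overlap cannot be told apart. The fold changes of mRpS22 (0.01), mRpL33 (0.04), mRpL51 (0.02) and mRpL28 (-0.08) were near 0, and none was called. The counts of mRpS22, at 1034, 1053 and 1064 in white RNAi and 1007, 1110 and 1053 in NSL1 RNAi, overlapped between the groups.

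**Figure D1:**
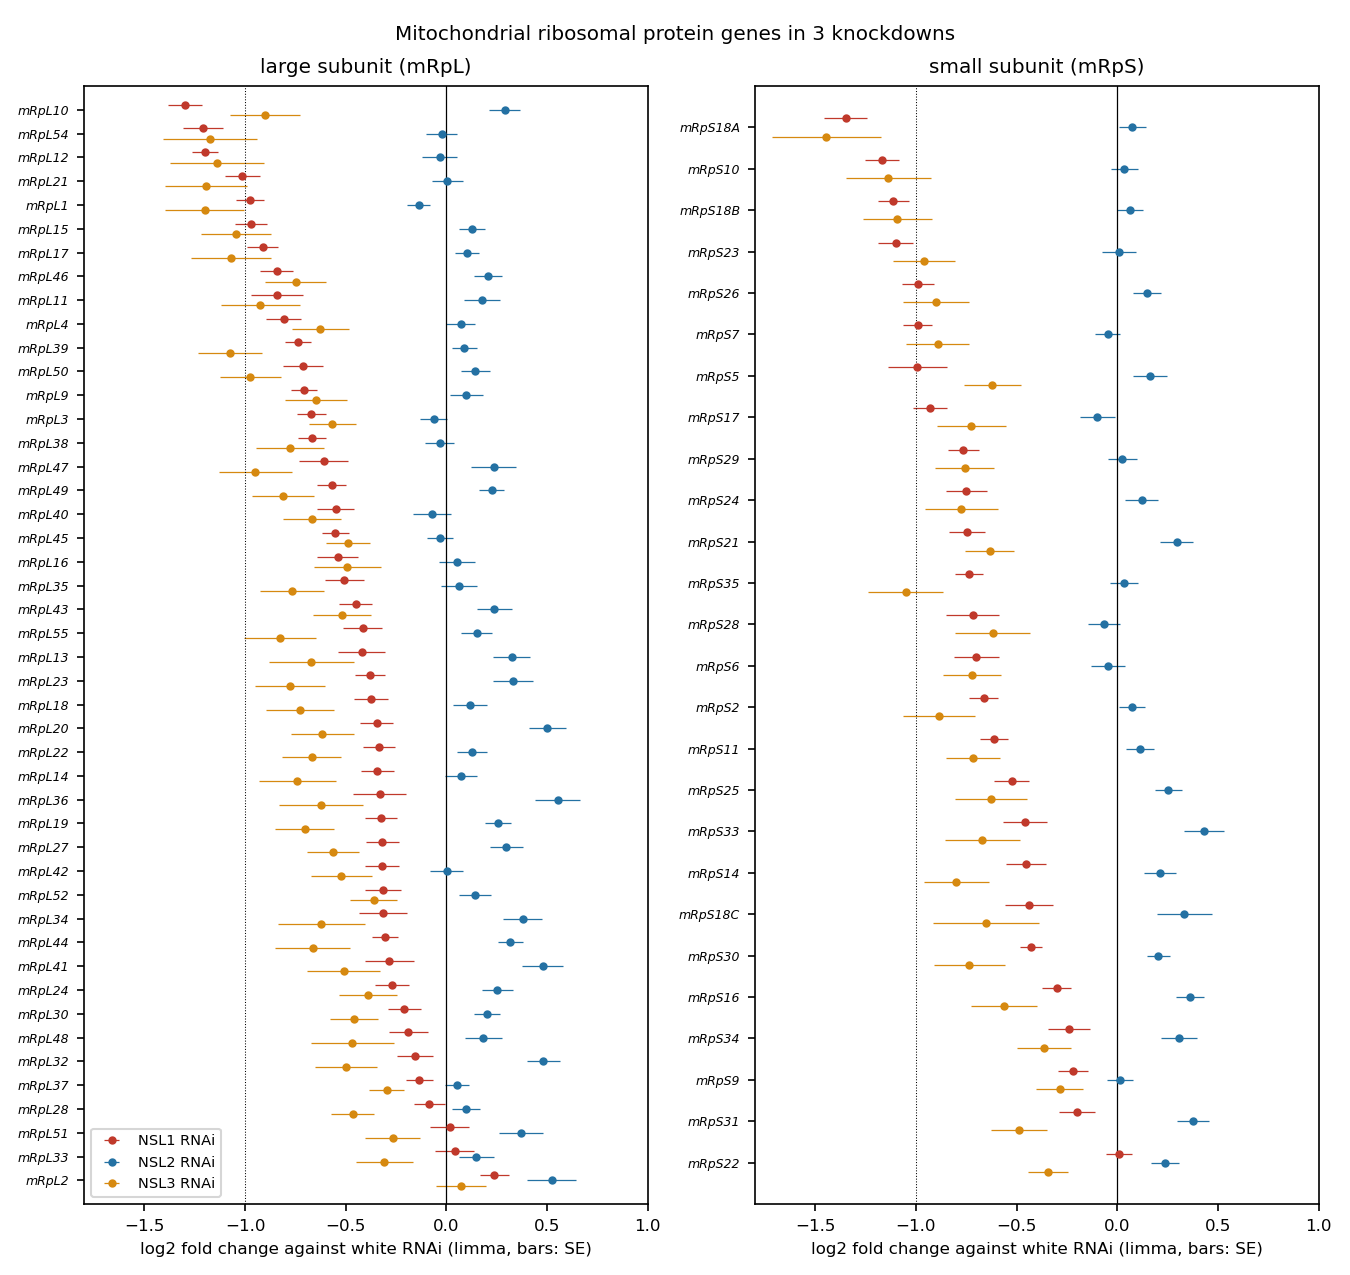
Log2 fold change of each of the 72 members against white RNAi (points, with bars of 1 SE, 3 libraries a group) in NSL1 RNAi, NSL2 RNAi and NSL3 RNAi, with large and small subunit members in separate panels and a dotted line at -1. Points of NSL1 RNAi and NSL3 RNAi lie mostly below 0, with medians of -0.53 and -0.67, while those of NSL2 RNAi lie between -0.14 and 0.55.

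In NSL3 RNAi ovaries the members were lower again. Of the 72, 66 fell, none rose and 6 were not called, with a median log2 fold change of -0.67 and a range of -1.44 to 0.07. Among all 8898 genes tested, 43.2% fell, 37.0% rose and the median was -0.12. For 69 members every NSL3 RNAi library lay below every white RNAi library, as in 46.9% of all genes. Past 2-fold, 11 members fell and none rose, against 14.6% and 29.6% of all genes. Scaling on genes alone moved the median of all genes to -0.02 and that of the members to -0.57, a difference of -0.55 under either scaling. In that scaling no member rose, whereas in DESeq2 mRpL2 did (log2 fold change 0.23, adjusted p = 0.043). The difference from all genes was -0.38 at a minimum mean of 50 and -1.10 with no minimum.

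The size of these falls changed with the NSL3 RNAi library left out. Without library 2, 70 members fell, 19 of them past 2-fold, and the median was -0.84, while without library 1 the numbers were 59, 4 and -0.59. Of all genes, 46.5% fell without library 2 and 41.7% without library 1, with a median of -0.15 in each fit. Past 2-fold, 1791 of 8830 genes fell without library 2 and 963 of 8690 without library 1. In the fit without library 2 the median was -0.83 for the large and -0.90 for the small subunit, and mRpL51, mRpS9 and mRpS18C were also called. Leading members then had log2 fold changes of -1.74 (mRpS18A), -1.43 (mRpL54), -1.40 (mRpL21), -1.39 (mRpL12 and mRpL1) and -1.38 (mRpS10), while that of mRpL2 was 0.0081. With each library left out in turn, the median stayed below 0 and 48 to 70 members fell, where 36.1% to 46.5% of all genes did. Which controls were used also mattered, since 50 members fell without white RNAi library 1 and 48 without white RNAi library 2. The shares of all genes that fell in these fits were 36.5% and 36.1%.

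mRpS18A again had the deepest fall, from 1316, 1329 and 1134 normalised reads in white RNAi to 316, 694 and 447 in NSL3 RNAi. The 3 knockdown libraries differed by over 2-fold among themselves but did not reach the controls (log2 fold change -1.44, SE 0.27, limma adjusted p = 0.0024). mRpL1, the protein of the mobile stalk by the exit site of tRNA, had 1348, 1418 and 1341 normalised reads in white RNAi and 450, 775 and 602 in NSL3 RNAi (log2 fold change -1.20, SE 0.19, limma adjusted p = 0.0014). In NSL1 RNAi its log2 fold change was -0.98, just short of the 2-fold mark.

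mRpL12 had 1714, 1738 and 1583 normalised reads in white RNAi and 547, 1081 and 744 in NSL3 RNAi (log2 fold change -1.14, SE 0.23). mRpS10 had 1094, 1217 and 1057 against 410, 712 and 453 (log2 fold change -1.14), and mRpL54 had 616, 640 and 545 against 217, 380 and 226 (log2 fold change -1.17). Library 2 was the highest of the 3 for each of these, and the groups did not overlap. mRpL21 had 934, 924 and 783 normalised reads in white RNAi and 308, 513 and 356 in NSL3 RNAi (log2 fold change -1.19, SE 0.20). The log2 fold changes of mRpS18B (-1.09), mRpL39 (-1.07), mRpL17 (-1.07), mRpS35 (-1.05) and mRpL15 (-1.04) completed the 11.

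mRpL17 lies by the exit of the peptide tunnel in the bacterial ribosome, and its normalised reads went from 940, 958 and 875 in white RNAi to 351, 590 and 410 in NSL3 RNAi. mRpL39 resembles an aminoacyl-tRNA synthetase in sequence, and its counts are uncertain because it overlaps the gene CG10006. They went from 1376, 1428 and 1297 to 540, 805 and 627. Neither pair of groups overlapped. mRpL10 fell by 0.90 on the log2 scale in NSL3 RNAi (SE 0.17), from 993, 932 and 830 normalised reads to 419, 619 and 454.

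The 6 members not called in NSL3 RNAi were mRpL2, with 495, 506 and 469 normalised reads in white RNAi and 471, 565 and 515 in NSL3 RNAi (log2 fold change 0.07, limma adjusted p = 0.60), mRpL33 (-0.31), mRpL51 (-0.27), mRpL48 (-0.47), mRpS9 (-0.29) and mRpS18C (-0.65). For mRpS18C the white RNAi libraries had 246, 257 and 218 normalised reads and the NSL3 RNAi libraries 112, 221 and 143, so library 2 reached into the control range. The highest fold changes among the members called were those of mRpL37 (-0.30), with 1409, 1469 and 1477 normalised reads in white RNAi and 1142, 1217 and 1185 in NSL3 RNAi, and of mRpS22. The call of mRpL37 was lost in DESeq2 (adjusted p = 0.060), with scaling on genes alone and without any 1 of the white RNAi libraries. mRpS22 fell in NSL3 RNAi from 945, 960 and 964 normalised reads to 710, 784 and 768 (log2 fold change -0.34, SE 0.10, limma adjusted p = 0.014).

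**Figure D2:**
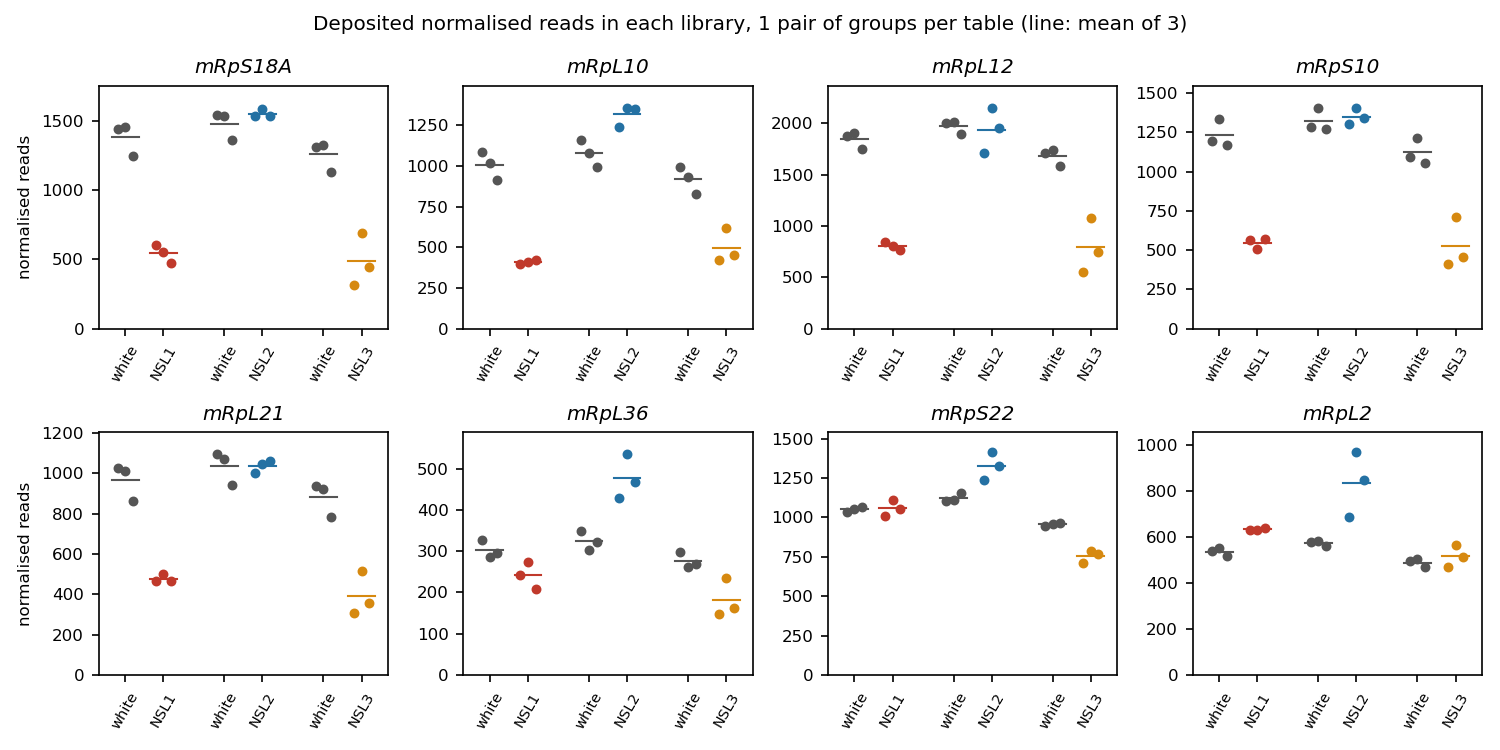
Deposited normalised read counts of 8 members in each library (points, with the mean of 3 as a line) for each knockdown and the white RNAi libraries of the same table, on linear axes that start at 0. For mRpS18A, mRpL10, mRpL12, mRpS10 and mRpL21 the NSL1 RNAi and NSL3 RNAi points lie under all white RNAi points, the NSL2 RNAi points of mRpL36, mRpL2 and mRpS22 lie above them, and mRpL2 lies above white RNAi in NSL1 RNAi.

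NSL2 RNAi ovaries, which were normal in form, differed from the other knockdowns in the direction of the members. None of the 72 fell, 24 rose and 48 were not called, with a median log2 fold change of 0.14 and a range of -0.14 to 0.55. Among all 8045 genes tested, 18.6% fell, 16.1% rose and the median was -0.04. No member passed 2-fold, where 1.17% of all genes fell and 8.46% rose past it. For 38 members every NSL2 RNAi library lay above every white RNAi library, as in 23.4% of all genes. For 1, mRpL1, every library lay below, as in 29.4% of all genes. Ovarian soma genes were higher in the same libraries, with a median log2 fold change of 3.00 over 21 tested genes, and their part in the rise of the members was not tested.

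The rises in NSL2 RNAi were small, and in some fits no more frequent than among all genes. With all libraries, 33.3% of members rose. Without white RNAi library 2, 7 members rose (9.72%, against 9.32% of all genes), and without NSL2 RNAi library 2 it was 10 (13.9% against 11.5%). Without white RNAi library 1 or 3, 11 and 12 rose (15.3% and 16.7%, against 9.98% and 15.0% of all genes), and without NSL2 RNAi library 1 or 3 it was 22 and 17 (30.6% and 23.6%, against 15.5% and 14.7%). The share of members was thus close to that of all genes in several of these fits. The 7 members that rose in each of these fits were mRpL20, mRpL32, mRpL36, mRpL44, mRpS16, mRpS31 and mRpS33. With the library numbers as a block, 9 members rose, which was 12.5% of the members and 12.5% of all genes.

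The highest fold change in NSL2 RNAi was that of mRpL36, a small protein of the large subunit, which had 350, 302 and 322 normalised reads in white RNAi and 430, 535 and 468 in NSL2 RNAi (log2 fold change 0.55, SE 0.11, limma adjusted p = 0.0096). mRpL32 had 577, 580 and 522 against 751, 836 and 760 (log2 fold change 0.48, SE 0.08, limma adjusted p = 0.0050). In both the lowest knockdown library was above the highest control. mRpL32 overlaps the gene CG1750, which rose in NSL2 RNAi as well (log2 fold change 1.28, limma adjusted p = 0.010), so its counts are uncertain. mRpL20, an early assembly protein in bacteria, had 616, 649 and 633 normalised reads in white RNAi and 853, 1017 and 827 in NSL2 RNAi (log2 fold change 0.50, SE 0.09, limma adjusted p = 0.0067).

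mRpL2 rose in NSL2 RNAi as well, from 580, 585 and 563 normalised reads to 689, 972 and 849 (log2 fold change 0.52, SE 0.12, limma adjusted p = 0.016). Its overlapping neighbour Ufd1-like had a log2 fold change of 0.15 there and was not called. The mitochondrion-specific mRpL41 had 219, 206 and 232 normalised reads in white RNAi and 301, 316 and 297 in NSL2 RNAi (log2 fold change 0.48). mRpS33 had 467, 470 and 398 against 613, 628 and 553 (log2 fold change 0.43, SE 0.10, limma adjusted p = 0.015). None of these 3 overlapped between groups.

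The members that fell furthest in the other knockdowns were near their control level in NSL2 RNAi. mRpS18A had 1542, 1538 and 1362 normalised reads in white RNAi and 1537, 1592 and 1537 in NSL2 RNAi (log2 fold change 0.07, SE 0.07). mRpL12 had 2007, 2011 and 1900 against 1707, 2149 and 1949, and mRpS10 had 1282, 1408 and 1269 against 1303, 1406 and 1342. The groups overlapped for all 3 genes. mRpL10 was different, with 1163, 1078 and 997 normalised reads in white RNAi and 1240, 1360 and 1352 in NSL2 RNAi (log2 fold change 0.29, SE 0.08, limma adjusted p = 0.024), a call that was lost in 4 of the 6 fits with 1 library left out and with the block. The lowest value in NSL2 RNAi was that of mRpL1, with 1579, 1641 and 1610 normalised reads in white RNAi and 1423, 1511 and 1454 in NSL2 RNAi (log2 fold change -0.14, limma adjusted p = 0.081). The next lowest there were mRpS17 (-0.10), mRpS28 (-0.07), mRpL40 (-0.07) and mRpL3 (-0.06), none of them called.

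The 3 comparisons share their controls, so their values are given side by side and not as an overlap. mRpL20 had log2 fold changes of -0.35, 0.50 and -0.62 in NSL1, NSL2 and NSL3 RNAi, and mRpS33 had -0.46, 0.43 and -0.67. The fall of mRpL20 in NSL1 RNAi was not called in DESeq2, and that of mRpS33 in NSL3 RNAi was not called without white RNAi library 1 or 2. mRpL36 had -0.33, 0.55 and -0.62, but its fall in NSL1 RNAi was not called in DESeq2, in edgeR (adjusted p = 0.092), with scaling on genes alone, with the block or in 5 of the 6 fits without a library, and its fall in NSL3 RNAi was not called with the block or in 5 of those 6. The same side by side values were -0.38, 0.33 and -0.77 for mRpL23, -0.75, 0.29 and -0.63 for mRpS21, -0.42, 0.32 and -0.67 for mRpL13, -0.33, 0.26 and -0.70 for mRpL19, -0.57, 0.22 and -0.81 for mRpL49 and -0.43, 0.20 and -0.73 for mRpS30. For each of these 6 genes the rise in NSL2 RNAi was lost in 1 or more fits without a library.

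In NSL2 RNAi, mRpL13 went from 452, 418 and 386 normalised reads in white RNAi to 511, 515 and 544, mRpL19 from 972, 906 and 928 to 1146, 1132 and 1077 and mRpL49 from 904, 896 and 878 to 1006, 1047 and 1077. mRpS30, whose human counterpart belongs to the large subunit, went from 2613, 2697 and 2652 to 2921, 3270 and 2987 in NSL2 RNAi and from 2442, 2555 and 2438 to 1850, 1912 and 1763 in NSL1 RNAi. None of these groups overlapped. mRpL55, the relative of bacterial L31, had log2 fold changes of -0.42, 0.15 and -0.83 in NSL1, NSL2 and NSL3 RNAi and was not called in NSL2 RNAi. mRpL33 and mRpL48 were called in none of the 3 comparisons.

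The knockdowns were also compared with each other, on 1 scale over all 12 libraries and 9097 genes. NSL1 RNAi was lower than NSL2 RNAi for 62 members and higher for none, with a median log2 difference of -0.51, where 38.2% of all genes were lower and 41.2% higher. NSL3 RNAi was lower than NSL2 RNAi for 71 members and higher for none, with a median of -0.75, where 38.0% of all genes were lower and 39.3% higher. The 1 member not called there was mRpS9, with 1030, 1140 and 1079 scaled reads in NSL3 RNAi and 1187, 1252 and 1150 in NSL2 RNAi (log2 difference -0.14, SE 0.08). Its groups did not overlap.

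mRpS18A had 592, 550 and 470 scaled reads in NSL1 RNAi, 340, 683 and 481 in NSL3 RNAi and 1214, 1272 and 1231 in NSL2 RNAi. The log2 difference was -1.21 between NSL1 RNAi and NSL2 RNAi (SE 0.20, limma adjusted p = 0.00015) and -1.36 between NSL3 RNAi and NSL2 RNAi (SE 0.20, limma adjusted p = 8.8e-05). Between NSL1 RNAi and NSL3 RNAi the libraries overlapped, and the log2 difference of 0.15 (SE 0.20) was not called. Past 2-fold, 2 members were lower in NSL1 RNAi than in NSL2 RNAi, where 11.5% of all genes were, and 9 were lower in NSL3 RNAi, where 7.89% of all genes were, the latter number of members being 1 without NSL3 RNAi library 1 and 23 without library 2. In these fits 434 of 9008 and 1106 of 9082 genes were lower past 2-fold.

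NSL1 RNAi and NSL3 RNAi differed less. In the fit over all 12 libraries, 26 members were higher in NSL1 RNAi and 1, mRpL10, was lower, with a median log2 difference of 0.23, where 15.4% of all genes were higher and 21.6% lower. The number higher was 2, mRpL28 and mRpS22, when only these knockdowns entered the fit. In that fit 2.78% of members and 9.27% of all genes were higher, so the share of members was below that of all genes. Without NSL3 RNAi library 2 it was 41 members (56.9%, against 19% of all genes). It was 11 (15.3%) without NSL1 RNAi library 2 and 11 without NSL3 RNAi library 3, against 11% and 13.5% of all genes. Without NSL1 RNAi library 1 or 3 it was 14 (19.4%, against 11.8% of all genes in each fit). Without NSL3 RNAi library 1 it was 15 (20.8%, against 15.0%). mRpL28 had 1201, 1212 and 1416 scaled reads in NSL1 RNAi and 945, 965 and 914 in NSL3 RNAi (log2 difference 0.44, SE 0.09, limma adjusted p = 0.0029). mRpS22 had 988, 1096 and 1049 against 764, 772 and 826 (log2 difference 0.41, SE 0.08, limma adjusted p = 0.0026). In both genes the lowest NSL1 RNAi library was above the highest NSL3 RNAi library. mRpL10 went the other way, with 388, 404 and 418 scaled reads in NSL1 RNAi and 451, 609 and 488 in NSL3 RNAi (log2 difference -0.34, SE 0.11, limma adjusted p = 0.034). This call was lost with only these knockdowns fitted (adjusted p = 0.13), without any 1 of the NSL1 RNAi libraries (adjusted p of 0.095, 0.080 and 0.060) and without NSL3 RNAi library 2 (adjusted p = 0.063).

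Both subunits took part in each pattern. In NSL1 RNAi, 38 of 46 large subunit members fell with a median log2 fold change of -0.42, and 23 of 26 small subunit members fell with a median of -0.71. In NSL3 RNAi, 42 of 46 and 24 of 26 fell, with medians of -0.67 and -0.72. In NSL2 RNAi, 16 large and 8 small subunit members rose, with medians of 0.15 and 0.12. The difference between the subunits was not tested. Subunits were assigned by gene symbol, although the human counterparts of mRpS18A and mRpS30 belong to the large subunit. Members with a bacterial counterpart had medians of -0.57, 0.12 and -0.71 in NSL1, NSL2 and NSL3 RNAi, and mitochondrion-specific members had medians of -0.49, 0.17 and -0.67. A further pair of mitochondrial ribosomal proteins carries other names. tko, the S12 protein of the decoding centre, had log2 fold changes of -0.70, 0.17 and -0.64 in NSL1, NSL2 and NSL3 RNAi, and bonsai, an S15 type protein, had -0.71, 0.18 and -0.92, in the range of the members.

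Overlap with other genes touches many members, since 42 of the 72 overlap another gene in the Release 6 annotation. Of the 30 without an overlap, 28 fell in NSL1 RNAi (93.3%) and 29 in NSL3 RNAi (96.7%), where 48.0% and 43.2% of all genes fell. Of the 42 with an overlap, 33 fell in NSL1 RNAi and 37 in NSL3 RNAi. Release 6 is not the build used in counting, and shared reads themselves were not measured. In NSL2 RNAi, 6 of these 30 rose with a median log2 fold change of 0.07, a share near the 16.1% of all genes, and 18 of the 42 members with an overlap rose with a median of 0.21. The difference between them was not tested. mRpL10 overlaps CG11617, which had a log2 fold change of 5.94 in NSL1 RNAi and 5.54 in NSL3 RNAi, so the counts of mRpL10 in those knockdowns are uncertain. So are those of mRpL39, which overlaps CG10006, with log2 fold changes of 3.64 in NSL1 RNAi and 3.79 in NSL3 RNAi. The same holds for mRpL32, whose neighbour CG1750 rose in NSL1, NSL2 and NSL3 RNAi (1.04, 1.28 and 0.69). It also holds for mRpS9, which overlaps wtrw and CG10092. Their log2 fold changes in NSL1, NSL2 and NSL3 RNAi were 1.15, 1.37 and 1.46 for wtrw and -1.01, -0.08 and -0.88 for CG10092.

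Most of the other nuclear genes of mitochondrial gene expression on the lists fell in NSL1 RNAi and NSL3 RNAi. Of 9 mitochondrial translation factors, 8 fell in NSL1 RNAi (median log2 fold change -1.0) and 7 in NSL3 RNAi (median -0.94), and none rose in either. The release factor gene CG5705 fell by 1.93 and 1.43 on the log2 scale, and the elongation factor G gene ico by 1.13 and 1.17. The elongation factor Tu gene EfTuM, with -0.08 and -0.29, was called in neither. Of 15 mitochondrial aminoacyl-tRNA synthetase genes, 12 fell in each knockdown, with medians of -0.95 and -0.72. Among them CG5660, which encodes a valine enzyme, had log2 fold changes of -1.67 and -1.30.

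Of 10 tested genes of mitochondrial DNA maintenance and transcription, 9 fell in NSL1 RNAi and 9 in NSL3 RNAi, with medians of -0.81 and -0.75. They included tam, the catalytic subunit of the mitochondrial DNA polymerase (-1.51 and -1.14), the helicase gene CG5924 (-1.71 and -1.52) and TFAM, which packages mitochondrial DNA (-0.98 and -1.02). The RNA-binding protein gene bsf rose in NSL1 RNAi (0.19). Of 12 import genes, 10 fell in each knockdown, with medians of -0.53 and -0.72, among them the receptor Tom70 (-1.20 and -1.34). In NSL2 RNAi the medians of these 4 lists lay between -0.06 and 0.12, and 4 genes rose and 6 fell in all. There tam fell by 0.33 and CG5705 by 0.33 on the log2 scale, while bsf rose by 0.47. Without NSL3 RNAi library 2 the NSL3 RNAi medians of the translation factor, synthetase, DNA and import lists were -1.10, -0.82, -0.86 and -0.86.

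Many, but not all, of the listed nuclear genes of the respiratory chain and ATP synthase encode proteins that assemble with those made by mitochondrial ribosomes. The medians of this list were above 0. Of these 88 genes, 73 were tested in NSL1 RNAi, where 35 rose and 8 fell with a median log2 fold change of 0.16. In NSL3 RNAi, 14 of 72 tested rose and 12 fell (median 0.03), and in NSL2 RNAi 25 of 70 rose and none fell (median 0.17). The cytosolic ribosomal protein genes, 87 in the tables, had medians of 0.17 in NSL1 RNAi (57 rose, 2 fell of 85), 0.10 in NSL2 RNAi (17 rose, 0 fell of 83) and -0.10 in NSL3 RNAi (6 rose, 21 fell of 84). Without NSL3 RNAi library 2, 18 of 72 respiratory chain genes rose and 16 fell there (median 0.05), and 10 of 85 cytosolic ribosomal protein genes rose and 22 fell (median -0.06). The differences between these lists and the members were not tested.

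**Figure D3:**
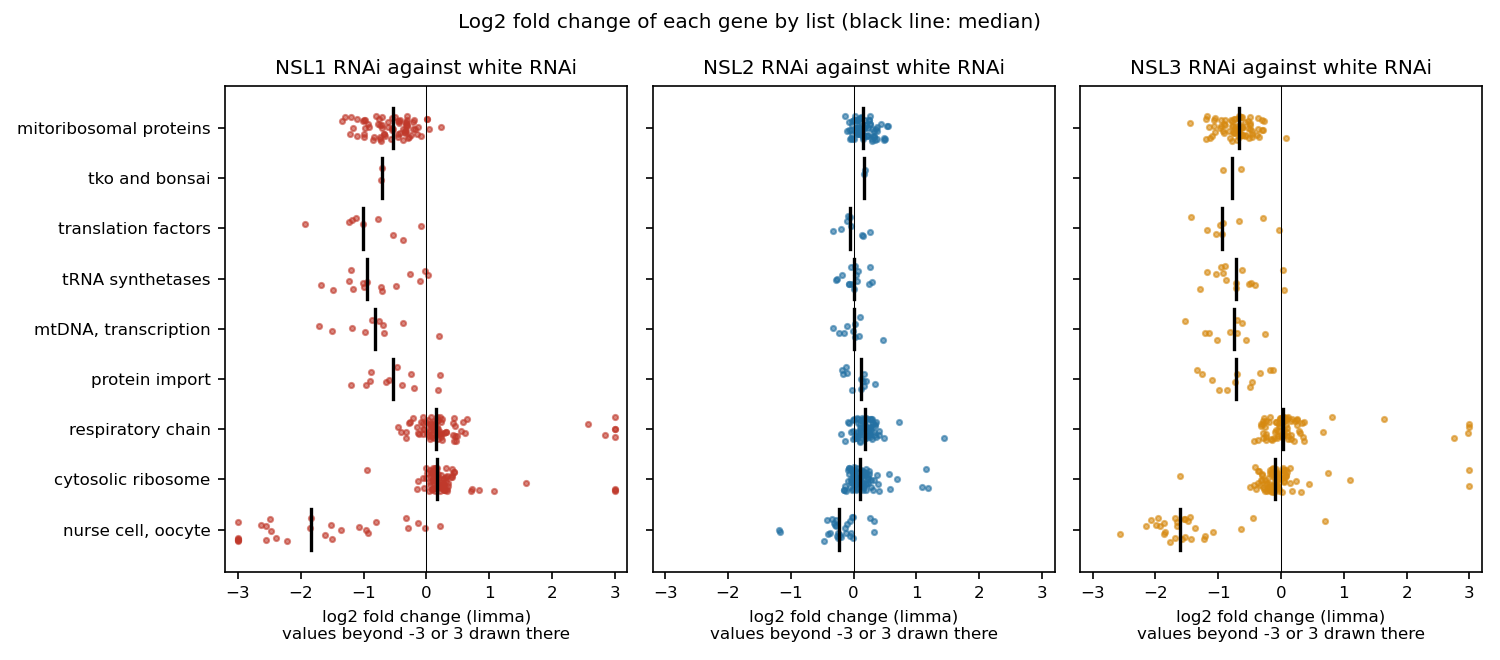
Log2 fold change against white RNAi of the tested genes of each list (points, with the median as a line) in the 3 knockdowns, with values beyond 3 or -3 drawn at that limit. tko and bonsai and the nurse cell and oocyte genes have lines of their own. The medians of the members, translation factors, tRNA synthetases, mitochondrial DNA and import genes lie between -0.53 and -1.0 in NSL1 RNAi and between -0.67 and -0.94 in NSL3 RNAi, while those of respiratory chain and cytosolic ribosomal protein genes lie between -0.10 and 0.17.

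As a share of all assigned reads, the 72 members together took 0.341%, 0.344% and 0.323% in the white RNAi libraries and 0.347%, 0.376% and 0.370% in NSL2 RNAi. They took 0.227%, 0.234% and 0.227% in NSL1 RNAi and 0.166%, 0.241% and 0.182% in NSL3 RNAi. Every NSL1 RNAi and NSL3 RNAi library was below every white RNAi library, and NSL3 RNAi library 2 was the highest of the atrophied ovaries.

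Marker genes of other cell types moved in the same libraries. Of 28 tested genes that mark nurse cells and the oocyte, 26 fell in NSL1 RNAi (median log2 fold change -1.84), 26 in NSL3 RNAi (median -1.61, with 1 rise) and 14 in NSL2 RNAi (median -0.23, with 2 rises). Their summed share of reads was 2.22% to 2.29% in white RNAi, 0.482% to 0.542% in NSL1 RNAi, 1.77% to 1.94% in NSL2 RNAi and 0.388%, 1.19% and 0.619% in NSL3 RNAi libraries 1, 2 and 3. The 1 list gene at 0 in every library was cup. The median of the members, at -0.53 and -0.67 in NSL1 and NSL3 RNAi, was nearer to 0, and in NSL3 RNAi the library with most nurse cell transcripts was also the one with most reads on members. With 3 libraries a group, a link between these was not tested.

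Genes of follicle cells and other ovarian soma, egg shell and yolk protein genes included, were higher as well. In NSL1 RNAi 18 of the 23 tested rose and 2 fell (median log2 fold change 3.14). The NSL2 RNAi libraries had 14 rises and 2 falls among 21 genes (median 3.00), and those of NSL3 RNAi 15 rises and 2 falls among 22 (median 2.68). Their summed share was 0.191%, 0.230% and 0.415% in white RNAi libraries 1, 2 and 3, 0.826% to 1.08% in NSL1 RNAi, 1.59%, 2.54% and 1.29% in NSL2 RNAi libraries 1, 2 and 3 and 0.634% to 0.879% in NSL3 RNAi. In NSL2 RNAi, where members rose, this was the marker list with the highest median, and no gene of it was at 0 in any library.

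All 19 tested muscle genes rose in NSL1 RNAi (median log2 fold change 6.18) and all 17 in NSL3 RNAi (median 7.03), and 11 of 17 did in NSL2 RNAi (median 0.64). Their summed share was 0.0186% to 0.0253% in white RNAi, 1.59% to 1.98% in NSL1 RNAi, 0.0256% to 0.0395% in NSL2 RNAi and 3.35%, 1.75% and 2.93% in NSL3 RNAi libraries 1, 2 and 3. The muscle genes fln and CG15699 were at 0 in every white RNAi library. The summed share of hemocyte genes was 0.0634% to 0.0769% with white RNAi, 0.949% to 1.04% in NSL1 RNAi, 0.0617% to 0.0727% in NSL2 RNAi and 0.763% to 1.36% in NSL3 RNAi. The number of tested hemocyte genes that rose was 11 of 12, 2 of 10 and 13 of 14 in NSL1, NSL2 and NSL3 RNAi, and 1, 2 and 1 fell. Fat body genes took 0.00694% to 0.0114% in white RNAi, 0.102% to 0.220% in NSL1 RNAi, 0.00779% to 0.0198% in NSL2 RNAi and 0.0976% to 0.216% in NSL3 RNAi. The number of tested neuronal genes that rose was 9 of 9, 2 of 5 and 7 of 8 in NSL1, NSL2 and NSL3 RNAi, and none fell. Without NSL3 RNAi library 2, the NSL3 RNAi medians of nurse cell and oocyte, ovarian soma, muscle, hemocyte and fat body genes were -1.99, 2.44, 7.34, 8.04 and 4.11. The part of these shifts in the changes of the mitochondrial ribosomal protein genes was not tested.

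**Figure D4:**
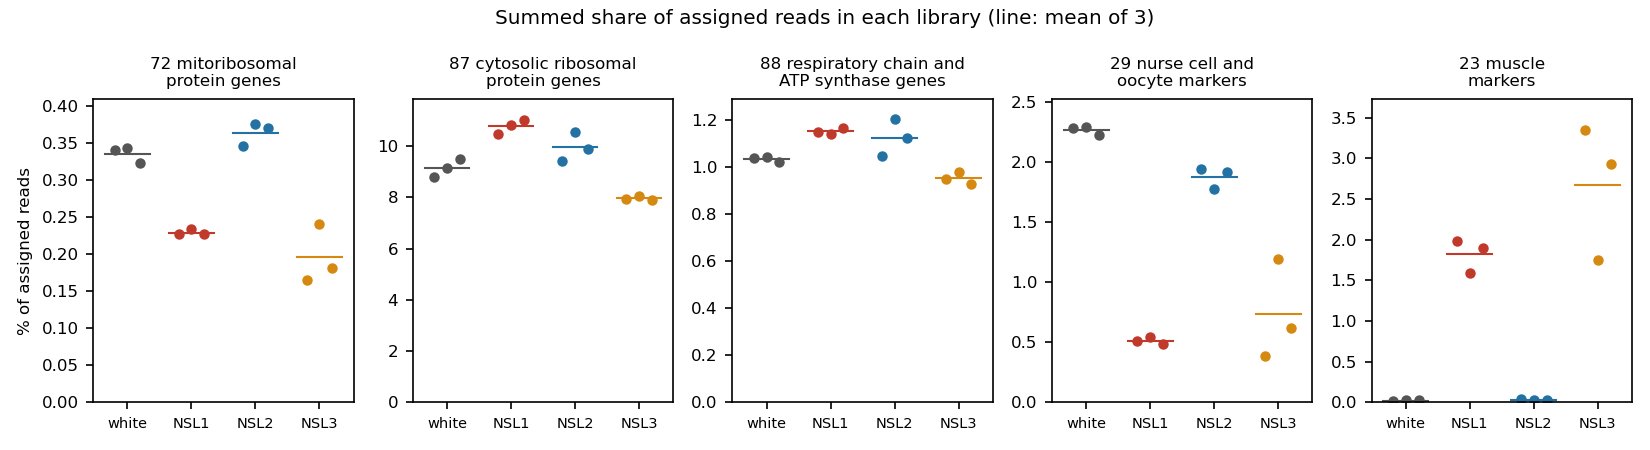
Share of assigned reads (percent) in each of the 12 libraries (points) of the 72 members, 87 cytosolic ribosomal protein genes, 88 respiratory chain and ATP synthase genes, 29 nurse cell and oocyte genes and 23 muscle genes. The members took at least 0.323% in white RNAi and at most 0.241% in NSL1 RNAi and NSL3 RNAi, and NSL3 RNAi library 2 has the highest member and nurse cell shares and the lowest muscle share of its group.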

How the data were processed

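Ovarian total RNA (stranded, depleted of ribosomal RNA) was sequenced by the authors, who removed ribosomal RNA reads with bowtie2, aligned to dm3 with STAR in piPipes, counted and normalised with DESeq2. Versions and the counting strand are not given in the sources used here. The study mentions spike-in size factors, but no spike-in is listed in the tables. Each deposited table holds, for 72525 features, 6 columns of signal, which the authors made by dividing read counts by size factors, together with the authors' own comparison columns (mean, log2 fold change, its error, statistic and p-values), which were not used. Dividing by the value of 1 read gave whole reads for 100% of values (tolerance 1e-06), and the white RNAi reads were identical in the 3 tables.

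Features with a mean of at least 10 were tested per table on log2(value + 1) with limma (3.58.1, trended variance) in R 4.3.3, with no block for the library number, which is given in the tables' column names. Transposon insertions were first summed by family. Adjusted p-values cover all features of a table that passed the minimum mean, which were 9302 for NSL1 RNAi, 8252 for NSL2 RNAi and 9102 for NSL3 RNAi. For comparisons between knockdowns, recovered reads of the 12 libraries were scaled by the median of ratios over genes and fitted together. Recovered reads tested in DESeq2 (1.42.0) or with the quasi-likelihood test of edgeR (4.0.16), other pseudocounts (0.5 and 5), minimum means (50 or none), scalings, the number of a library as a block and each library left out were alternatives. edgeR called 3903 genes that rose and 4156 that fell in NSL1 RNAi, 1444 and 1241 in NSL2 RNAi, and 3395 and 3637 in NSL3 RNAi. Only the limma fit of a single table was run on simulated reads, with fewer changed genes and less spread than in these data. Read recovery, scaling and the fit over 12 libraries were not simulated. Other steps used Python 3.11.15 with numpy 2.4.6 and pandas 2.3.3.

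Gene names were matched to RefSeq's Release 6 annotation (15061 of 15340 genes, and all 73 members), which also gave overlapping neighbours. No genome of the files' build was used, so no coordinates or sequences are given, and a planned ranking of levels by coding length was not made. Members and gene lists were chosen with earlier results of these data known. Named with values were the 5 members lowest and highest in each comparison, up to 12 past 2-fold and up to 8 called in opposite directions by size of change, and a fixed set (mRpL2, mRpL3, mRpL10, mRpL11, mRpL12, mRpL55, mRpS5, mRpS7, mRpS9, mRpS18A, mRpS18B, mRpS18C, tko and bonsai). Others are named where a count is spelled out.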

Additional observations from a re-analysis of the deposited data

How the results depend on the processing

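Of the 62, 24 and 66 members called in NSL1, NSL2 and NSL3 RNAi, 57, 7 and 48 were called in the same direction with each library left out, and 45, 7 and 48 also under all other alternatives but the block. In NSL1 RNAi, 44 members fell in DESeq2, 57 in edgeR and 56 to 63 with 1 library left out. Of all genes, 42.2%, 45.8% and 45.6% to 48.2% fell in these fits. The members past 2-fold there were 5 in DESeq2, 5 with scaling on genes alone and 7 to 12 with 1 library left out, and the medians were -0.37 in DESeq2, -0.46 in edgeR and -0.39 with scaling on genes alone. Among all genes, 1463 of 9083 fell past 2-fold in DESeq2 and 1520 of 9125 with scaling on genes alone. With 1 library left out, 1807 to 1973 of 8919 to 9191 genes did. In NSL3 RNAi, 59 members fell in DESeq2 and 48 to 70 with 1 library left out, where 39.4% and 36.1% to 46.5% of all genes fell. Past 2-fold there, 3 members fell in DESeq2, 7 in edgeR, 6 with scaling on genes alone, 4 without NSL3 RNAi library 1 and 19 without library 2. Among all genes, 862 of 8898 fell past 2-fold in DESeq2, 1056 of 8898 in edgeR and 1026 of 8917 with scaling on genes alone. Without NSL3 RNAi library 1 it was 963 of 8690, and without library 2 it was 1791 of 8830. In NSL2 RNAi, 26 members rose in DESeq2, 27 in edgeR and 7 to 22 with 1 library left out. Of all genes, 17.9%, 17.9% and 9.32% to 15.5% rose in these fits. Between NSL1 RNAi and NSL2 RNAi, 8 members passed 2-fold in edgeR (median -0.60) and 2 to 4 with 1 library left out. Among all genes, 1249 of 9097 were lower past 2-fold in edgeR, and 964 to 1091 of 9013 to 9134 with 1 library left out. Between NSL3 RNAi and NSL2 RNAi, 14 members passed 2-fold in edgeR and 1 to 23 with 1 library left out. There 762 of 9097 genes were lower past 2-fold in edgeR, and 434 to 1106 of 9008 to 9134 with 1 library left out. Members higher in NSL1 RNAi than in NSL3 RNAi were 16 in edgeR, 2 with only these 2 knockdowns fitted and 11 to 41 with 1 library left out. The shares of all genes that were higher in these fits were 14%, 9.27% and 11% to 19%. The cause of these differences was not tested.

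In NSL1 RNAi, mRpL28 changed sign in DESeq2 (0.084) and with scaling on genes alone (0.059). With 1 library left out, the log2 fold changes spanned -0.024 to 0.090 for mRpL33, -0.052 to 0.064 for mRpL51 and -0.028 to 0.042 for mRpS22, none called. Among 1423 values of named members under alternatives, 1309 kept direction and side of the threshold.

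Deviations of same-numbered libraries correlated at -0.15 to 0.00 in NSL1 RNAi, -0.44 to 0.07 in NSL2 RNAi and -0.16 to 0.24 in NSL3 RNAi. With 3 libraries a group, whose deviations are bound to each other by the group mean, these values cannot tell whether the numbers pair the samples. With the numbers as a block, 9 members rose in NSL2 RNAi (12.5%, where 12.5% of all genes rose), and 61 and 62 fell in NSL1 and NSL3 RNAi. Rankings by coding length and a promoter comparison were not run.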

Other observations

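The mean standardised log2 level of the 72 members was set beside each of 9025 other genes over the 12 libraries. The 10 genes with the highest Pearson r were bonsai (0.991), CG14270 (0.988), CG4882 (0.987), Pros35, now named Prosalpha6 (0.987), SmB (0.987), CG40042, now named Tim23 (0.986), CG9302 (0.985), ran (0.985), mago (0.984) and CG2852 (0.984). bonsai is a protein of the small mitochondrial ribosomal subunit, Tim23 a channel of the inner membrane, Pros35 a proteasome subunit, SmB a spliceosome protein and mago a subunit of the exon junction complex. The members' own r with this mean, of which each member is itself a part, had a median of 0.93. It was above 0.8 for 63 of them and was lowest for mRpL2 (0.19). The 12 points share their groups, libraries and scaling, so these values describe the libraries and carry no test. Between the 3 libraries of a group the SD of the log2 level had a median over the members of 0.070 in white RNAi, 0.076 in NSL1 RNAi, 0.087 in NSL2 RNAi and 0.19 in NSL3 RNAi, where all genes had medians of 0.085, 0.11, 0.13 and 0.28. White RNAi library 3 was the lowest of its group for 55 members, and NSL2 RNAi library 1 for 49.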
